A study of Homo sapiens with 4 samples.

Results

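The genes described here encode the translation initiation and elongation factors of the cytosol, with the proteins that bind or modify them. They were taken from the array's gene annotation as every gene with a single symbol beginning EIF or EEF and a digit, leaving out the EIF2AK kinases, which gave 58 of 18377 genes. All 58 were found in the RefSeq gene table of GRCh38.p14 under the same symbol. Of these, 56 are protein-coding, EEF1DP3 is a pseudogene and EIF3J-DT is a non-coding RNA transcribed away from EIF3J. EIF4A1, EIF5A, EIF3C and EIF4EBP3 are not analysed here, since their probe sets carry several symbols in the annotation. EIF1AY, the Y-linked copy of EIF1AX, is counted among the members, and its levels are not given.

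RNA was measured in A549 and H441, established lung adenocarcinoma cell lines, 48 h after lipid transfection. The siRNA was either the control, siNTC, or siTAZ, named for TAZ, which is the product of WWTR1 and a co-activator of transcription. The 4 combinations of line and siRNA, A549 siNTC, A549 siTAZ, H441 siNTC and H441 siTAZ, have 1 Affymetrix gene array each, and there are no replicates. Values are log2 signals, and a difference is the siTAZ value less the siNTC value of that line, in log2 units, unless another is named. The study asks which genes depend on TAZ in these lines, and here that question is put to the translation factors.

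Translation starts when eIF2 brings the initiator tRNA to the small ribosomal subunit, on which eIF3 is the large scaffold and eIF1 and eIF1A help to find the start codon. The cap of the mRNA is bound by eIF4E, which joins the scaffold eIF4G and the RNA helicase eIF4A, and the eIF4E-binding proteins block that step when mTORC1 does not phosphorylate them. eIF2B recharges eIF2 with GTP, and eIF5B joins the large subunit. In elongation eEF1A delivers tRNAs, the eEF1B subunits recharge eEF1A, and eEF2 moves the ribosome along the mRNA until the kinase eEF2K switches it off.

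The targeted gene checked the labels. WWTR1 had signals of 10.04 with siNTC and 7.64 with siTAZ in A549, and of 9.61 and 7.47 in H441, differences of -2.40 and -2.14. The arrays' medians ran from 6.05 to 6.25 over all probe sets, and Pearson's r between the siNTC and siTAZ arrays was 0.994 for A549 and 0.995 for H441. All 5 epithelial markers (EPCAM, CDH1, KRT8, KRT18 and KRT19) were above the median of the whole table, 6.13, on every array. Of 4 distal lung markers, all reached that median in H441 and 1 (SFTPD) in A549. In H441, NKX2-1 had 9.14 with siNTC and 9.57 with siTAZ, SFTPB 7.42 and 8.09, NAPSA 10.10 and 10.40 and SFTPD 6.45 and 6.46, so NKX2-1, SFTPB and NAPSA were higher on the siTAZ array. In A549 these 4 genes lay between 5.01 and 6.37. Of 9 markers of other cell types, 2 in A549 and 3 in H441 reached that median. CD68 had 8.61 to 10.41, COL1A1 was higher on the siTAZ array of each line (7.31 and 7.72 in A549, 8.28 and 8.71 in H441), and COL3A1 reached 6.31 in H441, while PTPRC, the leukocyte gene, stayed between 4.52 and 4.74. Their part in the results was not tested. As in any bulk sample, fewer cells of a type and less RNA per cell cannot be told apart.

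No translation factor gene changed over both lines by the test. Limma was fitted to all 4 arrays with the cell line as a block, and it called 0 of the 57 members that were bright enough to be tested at an adjusted p under 0.05. Over all 12740 tested genes it called 315, which is 2.47% (1.19% higher and 1.29% lower with siTAZ). An unadjusted limma p under 0.05 was reached by 2 members, EIF2S3B and EIF3J, against 1688 genes or 13.2% over the whole table. The mean differences of the members over both lines lay between -0.48 (EIF2S3B) and 0.20 (EEF1A2). When arrays of the same 12740 genes were simulated, 8% of the genes given a log2 change of 0.3 were called, and 95.5% of those given 0.6. Every simulated gene had noise of the same spread, taken from all tested genes, and genes that vary more or less were not simulated. At that spread, changes of the size most members showed were mostly not detectable with 4 arrays.

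Within a line, fold changes were small as well. In A549, of 57 members counted, EIF3J was the 1 that was lower by at least 0.32 on the log2 scale, where the background of all genes is 5.7%, and 0 were higher by as much, where it is 7.78%. In H441, of 55 members counted, EIF2S3B and EIF3J were lower by that margin, against 7.04% of all genes, and 0 were higher, against 5.73%. On the probe set used for each gene, EIF2S3B in H441 was the 1 member past 1.5-fold in either line. Of all genes, 0.974% were 1.5-fold lower and 0.479% higher in H441, and 1.07% lower and 1.76% higher in A549. Differences within 0.1 of 0 were found for 31 of the 57 members in A549 (54.4%) and 29 of the 55 in H441 (52.7%), against 40.6% and 38.5% of all genes counted. Members were bright, with array medians of 9.48 to 10.03, against 6.05 to 6.25 over all probe sets. The part of signal level in these shares was not tested. A gene was counted in a line where the brighter of its arrays reached the table median.

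**Figure D1:**
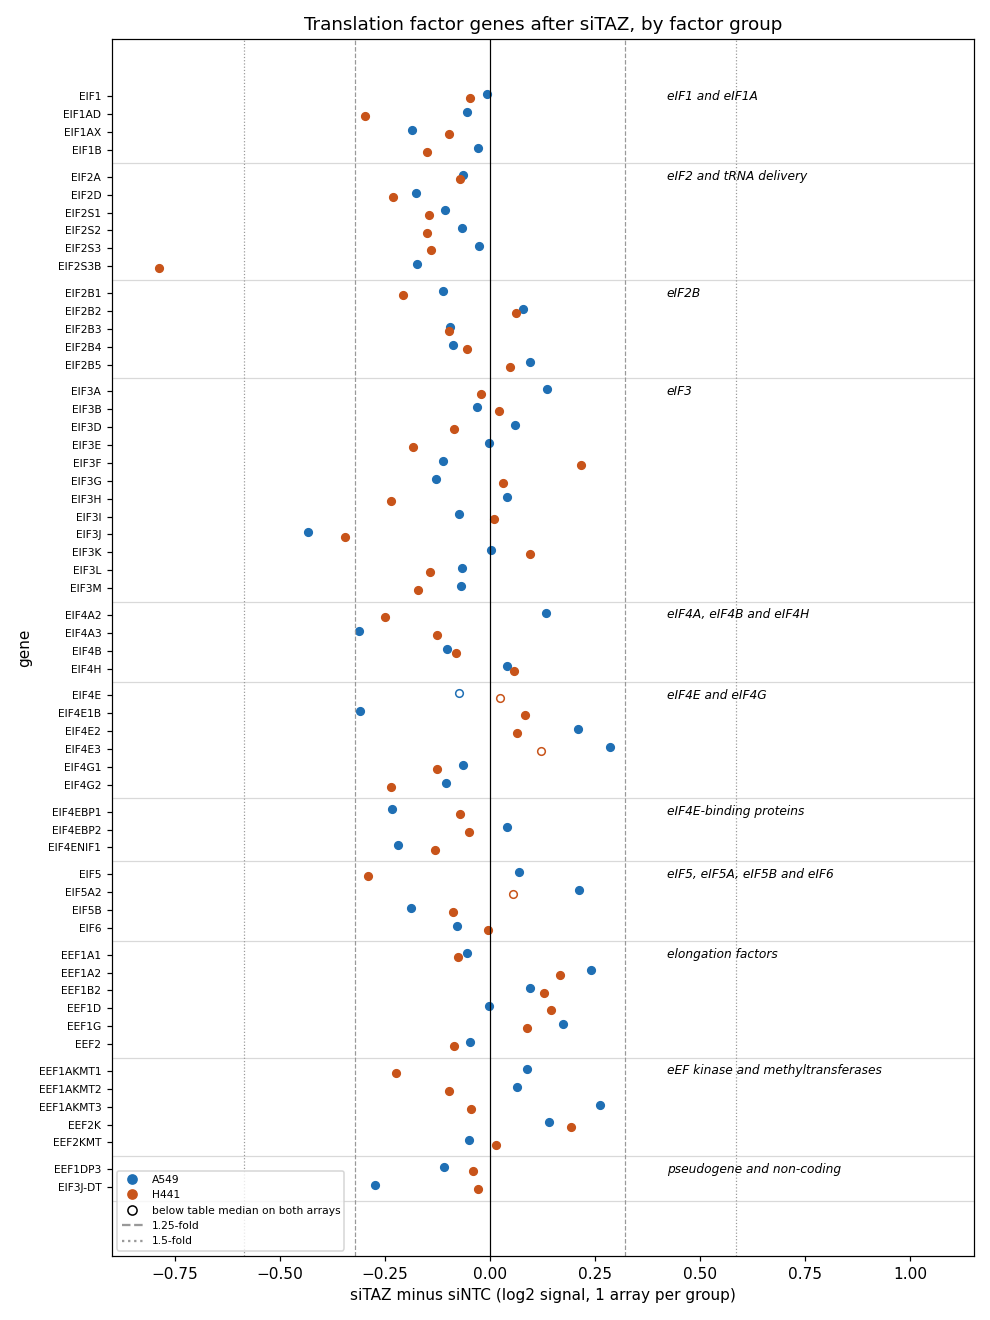
Log2 difference siTAZ minus siNTC for 57 of the 58 genes (EIF1AY is not drawn), grouped by factor, with A549 in blue and H441 in orange; each point compares 1 array with 1 array, and open points were below the table median on both arrays. EIF3J is past the dashed line at -0.32 in both lines, EIF2S3B is past the dotted 1.5-fold line in H441, and the other genes lie between the dashed lines.

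The small differences were more often below 0 than above it. In A549, 36 of 57 members were below 0 with a median of -0.05, where 48.4% of all genes were below 0 and their median was 0.01. In H441, 39 of 55 were below 0 with a median of -0.08, against 48.8% and a median of 0.00 (0.0048). Members below 0 in both lines numbered 29 of the 57 tested (50.9%), against 27.2% of all tested genes, and members above 0 in both lines numbered 11 (19.3%), against 30.3%. The lines share no array. These counts moved with the scaling of the arrays: the members below 0 numbered 35 to 38 in A549, 31 to 47 in H441 (of 54 counted there) and 24 to 35 in both lines over median centring, quantile normalization and cyclic loess. The 47 came from median centring, where 66.8% of all genes were below 0 in H441, against 46.7% after quantile normalization and 48.5% after cyclic loess. The share of all genes below 0 in both lines was then 26.8% to 37.0%.

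Bright genes as a whole leaned the same way in H441. Of the 547 genes with a mean H441 signal of 11 or more, 65.6% were below 0 with a median of -0.05, and of the 18 members that bright 77.8% were, with a median of -0.08. In A549 the 357 genes that bright were below 0 in 45.7% of cases with a median of 0.01, and the 13 members in 76.9% with a median of -0.05. With a mean signal of 9 to 11, 63.2% of 19 members were below 0 in A549, against 47.1% of all genes. In H441 it was 75% of 16 members, against 57.8%. Among dimmer genes, of 7 to 9, members were near all genes. There 54.5% of 22 members were below 0 in A549, against 49.5%, and 52.9% of 17 in H441, against 50.4%. The signal classes were chosen after the values were seen, and the part of signal level in the members' counts was not tested.

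**Figure D2:**
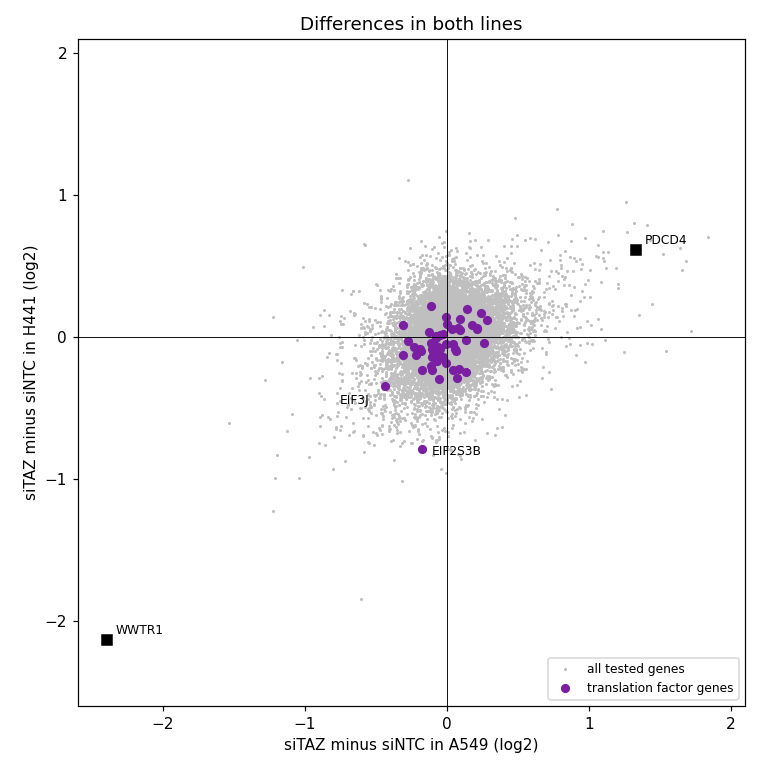
Log2 difference siTAZ minus siNTC in A549 (x axis) against H441 (y axis) for the 12740 tested genes (grey) and the 57 tested translation factor genes (purple), with WWTR1 and PDCD4, an inhibitor of eIF4A outside the family, as black squares. The purple points lie inside the grey cloud, with EIF2S3B at -0.17 and -0.79 and EIF3J at -0.43 and -0.35. WWTR1 is at -2.40 and -2.14, and PDCD4 is at 1.33 and 0.61.

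Among the factor complexes, eIF2 with the other tRNA delivery factors was the one with every member below 0 in both lines. All 6 (EIF2S1, EIF2S2, EIF2S3, EIF2S3B, EIF2A and EIF2D) were, also after median centring, quantile normalization and cyclic loess. On the values as deposited, their medians were -0.09 in A549 and -0.15 in H441, and limma called 0 of them. The H441 median was -0.23 after median centring and -0.08 after quantile normalization and after cyclic loess, and the A549 median stayed at -0.10 to -0.09. EIF2S1 encodes the alpha subunit whose phosphorylation slows initiation under stress. Its signals were 10.43 with siNTC and 10.32 with siTAZ in A549, and 10.62 and 10.48 in H441. The siTAZ array was the lower of each line by 0.11 and 0.15, and the mean difference of -0.13 had a limma 95% interval of -0.37 to 0.12 that spans 0. EIF2S2, the beta subunit, had differences of -0.07 and -0.15, and EIF2A, an alternative initiation factor, had -0.06 and -0.07. EIF2D, which can place the initiator tRNA without GTP, had signals of 8.70 and 8.52 in A549 and 8.87 and 8.64 in H441. Its mean difference was -0.20 ± 0.12 (limma SE) and missed the threshold (limma adjusted p = 0.49).

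EIF2S3B had the largest difference of any member. It is a copy of EIF2S3, the gene of the gamma subunit, on another chromosome. Its signals were 6.46 with siNTC and 6.29 with siTAZ in A549, and 6.70 and 5.91 in H441. The 4 values are dim, and the H441 siTAZ array was the 1 array below the table median. The siTAZ array was lower by 1.13-fold (A549) and 1.73-fold (H441), and the mean of -0.48 ± 0.13 (limma SE, 95% interval -0.76 to -0.21) missed the threshold with a limma adjusted p of 0.054. It was called after median centring (-0.53, limma adjusted p = 0.012) and with a prior variance that follows the signal (limma adjusted p = 0.029), and its adjusted p ran from 0.012 to 1 over the alternatives that kept it. It drops out where a highest signal of 7 is required. EIF2S3 itself, a bright gene, had 12.10 and 12.07 in A549 and 11.73 and 11.59 in H441, a mean difference of -0.08 (limma adjusted p = 0.84).

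The start regions of this pair show how alike the copies are there. Each line gives the 10 bases before and the 20 bases from the RefSeq transcription start (GRCh38.p14), with the run of pyrimidines at the start in capitals. EIF2S3 is at chrX:24054946-24054975 and EIF2S3B at chr12:10505880-10505909, both on the plus strand. EIF2S3B has 2 starts in the table, and the one with the pyrimidine run is printed.
EIF2S3: gatttccttcCTCTTTTggcaacatggcgg
EIF2S3B: gactttcttcCTCTTTTggcaacatggcgg
These stretches are identical at 28 of 30 bases, and the 50 bases from the start at 48 of 50. Probe sequences were not used here, and whether the probe sets tell the copies apart was not tested.

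The 5 subunits of eIF2B did not share a direction. EIF2B1 (-0.11 in A549 and -0.21 in H441), EIF2B3 (-0.09 and -0.10) and EIF2B4 (-0.09 and -0.06) were below 0 in both lines. EIF2B2 (0.08 and 0.06) and EIF2B5, the catalytic subunit (0.09 and 0.05), were above 0 in both, and after median centring all 5 were below 0 in H441. Limma called 0 of the 5. The eIF1 and eIF1A group, which holds the EIF1A-like gene EIF1AD, had 4 of 5 members below 0 in A549 and 5 of 5 in H441, and 0 calls. Over the other scalings 3 to 5 of the 5 were below 0 in A549, and 3 or 4 of the 4 counted in H441. EIF1 had 12.84 and 12.83 in A549 and 13.18 and 13.13 in H441, so its siTAZ and siNTC arrays nearly coincided. EIF1AX had differences of -0.19 and -0.10, EIF1B -0.03 and -0.15. EIF1AD, an EIF1A-like gene, had 8.16 and 8.10 in A549 and 9.31 and 9.02 in H441. Its mean of -0.18 ± 0.12 (limma SE) did not pass (limma adjusted p = 0.58).

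Of the eIF3 scaffold, 12 subunit genes were measured, and EIF3J had the largest differences. Of these 12, 8 were below 0 in A549 and 7 in H441, with medians of -0.05 in both, and the H441 median was 0.01 after quantile normalization and 0.03 after cyclic loess. EIF3J encodes the loosely bound subunit that acts at the mRNA channel of the small subunit. Its signals were 8.72 with siNTC and 8.28 with siTAZ in A549, and 9.02 and 8.68 in H441. Both siTAZ arrays were lower than both siNTC arrays, by 1.35-fold and 1.27-fold within the lines. The mean of -0.39 ± 0.12 (limma SE, 95% interval -0.63 to -0.15) did not pass (limma adjusted p = 0.084). It was called after median centring (-0.44, limma adjusted p = 0.041) and with a prior variance that follows the signal (limma adjusted p = 0.022), over a range of 0.022 to 1 for all alternatives. By its limma p EIF3J ranked 439 of the 12740 genes and EIF2S3B 336.

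The other eIF3 genes stayed closer to 0. EIF3A, the largest subunit, had 11.22 and 11.35 in A549 and 11.40 and 11.37 in H441, a mean difference of 0.06 (limma 95% interval -0.19 to 0.30). EIF3B, the other core scaffold gene, had -0.03 and 0.02, EIF3I -0.07 and 0.01, EIF3G -0.13 and 0.03 and EIF3D, which can bind the cap, 0.06 and -0.09. The MPN and PCI domain subunits were mixed: EIF3F had -0.11 and 0.22, EIF3H 0.04 and -0.24, EIF3E -0.0036 and -0.18, EIF3L -0.07 and -0.14, EIF3M -0.07 and -0.17 and EIF3K 0.0026 and 0.09. For 7 of the 12 the sign differed between the lines.

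EIF3J is transcribed head to head with EIF3J-DT, so the stretch between their starts is shown as the region they share. It is the 250 bases before the RefSeq start of EIF3J, chr15:44536897-44537146 on the plus strand of GRCh38.p14. Capitals mark the 223 bases that lie between the nearest start of EIF3J-DT, which runs the other way, and the start of EIF3J.
EIF3J: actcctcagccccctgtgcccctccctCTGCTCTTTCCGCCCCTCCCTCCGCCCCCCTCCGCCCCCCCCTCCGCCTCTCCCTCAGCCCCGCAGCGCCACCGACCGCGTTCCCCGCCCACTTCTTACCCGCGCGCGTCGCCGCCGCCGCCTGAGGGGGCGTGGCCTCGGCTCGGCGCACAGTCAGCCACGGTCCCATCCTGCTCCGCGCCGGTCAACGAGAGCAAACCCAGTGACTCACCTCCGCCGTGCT
EIF3J-DT had signals of 7.19 and 6.92 in A549 and 8.57 and 8.54 in H441. Its A549 difference of -0.27 had the sign of that of EIF3J, its H441 difference was -0.03, and its mean of -0.15 ± 0.12 (limma SE) did not pass (limma adjusted p = 0.66). TAZ reaches DNA through the TEAD factors, and their core motif GGAATG, searched on both strands, was not in the EIF3J window. It was in a window of 7 of the 45 members that had one (15.6%), against 16.7% of all 27305 genes and 14.0% of all 35116 windows of 300 bases. A match to letters is a description and not a binding site.

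**Figure D3:**
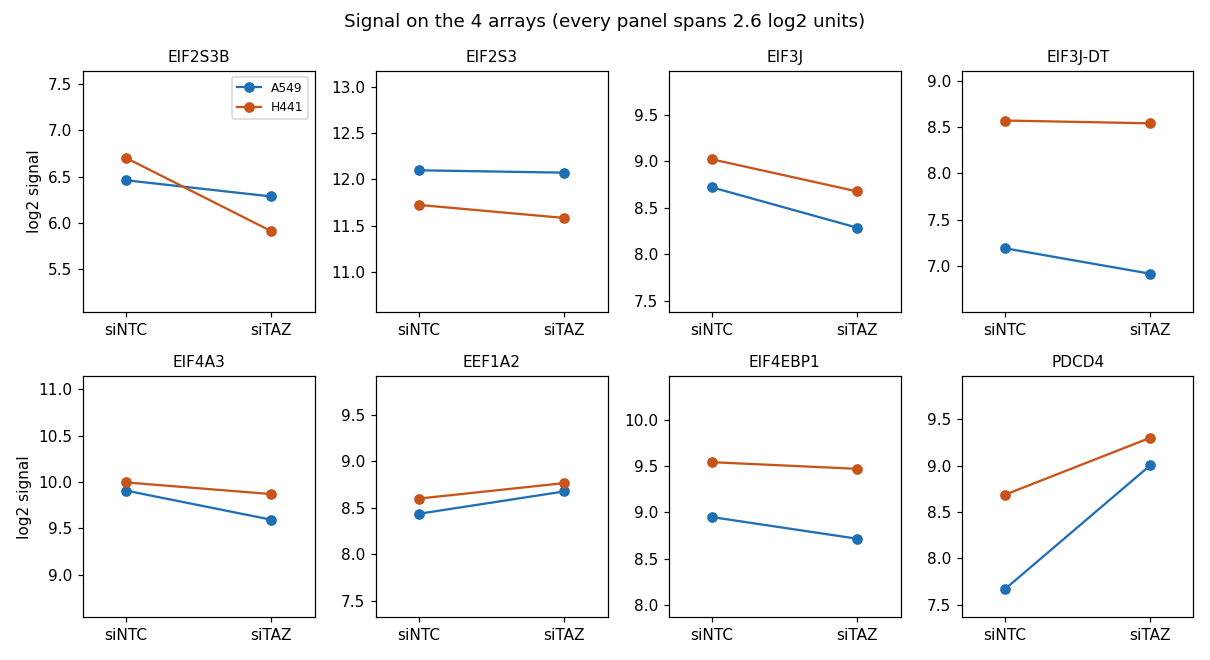
Log2 signal on each of the 4 arrays for 8 genes, with the siNTC and siTAZ arrays of a line joined (A549 blue, H441 orange); each point is 1 array, and every panel spans the same number of log2 units. EIF3J slopes down in both lines, EIF2S3B slopes down mainly in H441 (-0.79), where EIF2S3 differs by -0.14, and PDCD4 slopes up in both lines.

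The eIF4E and eIF4G genes and the eIF4A, eIF4B and eIF4H genes had 0 calls among the 9 members tested. EIF4E, the cap-binding protein, had 5.77 and 5.69 in A549 and 5.71 and 5.73 in H441. All 4 values were below the table median, so EIF4E was the 1 member not tested, and array signals that low compress differences. EIF4G1, the scaffold, had 10.08 and 10.02 in A549 and 11.12 and 10.99 in H441, a mean difference of -0.10 (limma 95% interval -0.34 to 0.15). EIF4G2, which drives cap-independent initiation, had 12.40 and 12.30 in A549 and 12.09 and 11.86 in H441. Its siTAZ arrays were lower by 0.10 and 0.24, and its mean of -0.17 did not pass (limma adjusted p = 0.59). Of the eIF4E relatives, EIF4E2, a repressive cap-binding protein, had 0.21 and 0.06. EIF4E3 had 7.36 and 7.64 in A549 and 5.68 and 5.80 in H441, where both arrays were below the table median (limma adjusted p = 0.49). EIF4E1B had 7.43 and 7.12 in A549 and 7.25 and 7.33 in H441, so that its differences had opposite signs in the lines.

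Among the helicases of the eIF4A family, EIF4A3, which belongs to the exon junction complex, had 9.91 and 9.59 in A549 and 9.996 and 9.87 in H441. It was 1.24-fold and 1.09-fold lower, and the mean of -0.22 ± 0.12 (limma SE) did not pass (limma adjusted p = 0.45). EIF4A2 had 9.13 and 9.26 in A549 and 10.44 and 10.18 in H441, higher with siTAZ in A549 by 0.13 and lower in H441 by 0.25. EIF4B and EIF4H, which stimulate the helicase, had -0.10 and -0.08, and 0.04 and 0.06. These are values of the used probe sets. Other probe sets of EIF4B had -0.77 and -0.26 in H441, with -0.0035 and 0.09 in A549. A dim one of EIF4A2 had -0.52 in A549 and -0.02 in H441.

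The eIF4E-binding proteins were tested as 3 genes, with 0 calls. EIF4EBP1 had 8.95 and 8.72 in A549 and 9.54 and 9.47 in H441. Both siTAZ arrays were lower, by 1.17-fold and 1.05-fold, and the mean of -0.15 had a limma 95% interval of -0.40 to 0.09. EIF4EBP2 had 0.04 and -0.05. EIF4ENIF1, which carries eIF4E into the nucleus, had 7.48 and 7.27 in A549 and 7.90 and 7.77 in H441 (mean -0.17, limma adjusted p = 0.58).

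The subunit-joining and late factors had 0 calls among 4. EIF5, which triggers GTP hydrolysis by eIF2, had 10.17 and 10.24 in A549 and 10.88 and 10.59 in H441. It was lower with siTAZ in H441 alone, by 1.22-fold, and its mean of -0.11 did not pass (limma adjusted p = 0.78). EIF5B had -0.19 and -0.09, EIF6, which keeps the large subunit apart, -0.08 and -0.0044, and EIF5A2, the tissue-restricted eIF5A, 0.21 and 0.06, with H441 below the table median.

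Elongation factors were the group with medians above 0 in both lines, at 0.05 in A549 and 0.11 in H441. Of the 6, 3 were below 0 in A549 and 2 in H441, limma called 0, and over the other scalings the medians ran from 0.04 to 0.05 in A549 and from 0.02 to 0.15 in H441. EEF1A1, the main tRNA carrier, had 13.69 and 13.63 in A549 and 13.81 and 13.74 in H441. The siTAZ arrays were lower by 0.06 and 0.08, and the limma 95% interval of the mean was -0.31 to 0.18. EEF1A2, the form of muscle and neurons that is also active in tumours, had 8.44 and 8.67 in A549 and 8.60 and 8.76 in H441. Both siTAZ arrays were above both siNTC arrays, by 1.18-fold and 1.12-fold within the lines, and the mean of 0.20 ± 0.12 (limma SE) did not pass (limma adjusted p = 0.49). Of the exchange subunits, EEF1B2 (0.09 and 0.13) and EEF1G (0.17 and 0.09) were above 0 in both lines, and EEF1D (-0.0036 and 0.14) in H441. EEF2, the translocase, had 11.99 and 11.94 in A549 and 12.49 and 12.41 in H441, a mean of -0.07 with a limma 95% interval of -0.31 to 0.17.

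Of the enzymes that act on elongation factors, EEF2K, the kinase that inhibits eEF2, had 7.34 and 7.48 in A549 and 7.63 and 7.82 in H441. Both siTAZ arrays were higher within their line, by 1.10-fold and 1.14-fold, and the mean of 0.17 did not pass (limma adjusted p = 0.60). The methyltransferase genes EEF1AKMT1 (0.09 and -0.22), EEF1AKMT2 (0.06 and -0.10), EEF1AKMT3 (0.26 and -0.05) and EEF2KMT (-0.05 and 0.01) each changed sign between the lines, and limma called 0 of the 5 genes of this group.

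Many mRNAs of the translation machinery begin with a cytosine followed by a run of pyrimidines, the terminal oligopyrimidine tract through which mTORC1 and LARP1 control their use. A C at the RefSeq start followed by at least 4 bases that are C or T was found for 13 of the 45 members with a start window (28.9%), against 5.14% of all 27305 genes and 4.07% of all 35116 windows. Examples are shown as windows of 30 bases, from 10 before the start, with the tract in capitals. They are EEF1A1 at chr6:73521013-73521042 (minus strand), EEF2 at chr19:3985444-3985473 (minus), EEF1B2 at chr2:206159885-206159914 (plus), EIF4B at chr12:53006446-53006475 (plus) and EIF3F at chr11:7987327-7987356 (plus).
EEF1A1: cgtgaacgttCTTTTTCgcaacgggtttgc
EEF2: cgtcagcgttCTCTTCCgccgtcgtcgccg
EEF1B2: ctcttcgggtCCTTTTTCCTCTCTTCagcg
EIF4B: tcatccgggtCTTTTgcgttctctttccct
EIF3F: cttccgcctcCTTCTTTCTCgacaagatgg
Genes with and without the tract had medians that were equal at 2 decimals. The 13 genes with it had a median of -0.06 in A549 and -0.09 in H441, and the genes without it had -0.06 (31 counted) and -0.09 (29 counted). EEF1B2, like EIF2S3B, has another start, and the one with the tract is printed.

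The regulators around these factors were taken as lists outside the family, and PDCD4 was the only gene of any of them to pass the test. PDCD4, which binds and inhibits the helicase eIF4A, had 7.67 with siNTC and 9.001 with siTAZ in A549, and 8.69 and 9.30 in H441. Both siTAZ arrays were above both siNTC arrays, and the gene rose, by 2.51-fold in A549 and by 1.53-fold in H441 (mean 0.97 ± 0.14 limma SE, limma adjusted p = 0.00021). The call was lost after cyclic loess (limma adjusted p = 0.061) and without the line in the fit (limma adjusted p = 1), where the mean difference was 0.99 and 0.97, and over all alternatives the adjusted p ran from 8.04e-12 to 1. It was the 1 call among 9 tested poly(A)-binding proteins and eIF4 regulators. Limma called 0 of 4 eIF2 kinases, 0 of 6 release and recycling factors, 0 of 10 mTORC1 signalling genes, 0 of 6 eIF2 phosphatase and hypusination genes, 0 of 8 mitochondrial factors and 0 of 19 cytosolic aminoacyl-tRNA synthetases, of which 1, 0, 0, 1, 1 and 2 had an unadjusted p under 0.05. Over all tested genes 2.47% were called and 13.2% had such an unadjusted p, and with lists this short nothing is read from their shares.

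Besides PDCD4, the genes of those lists with an unadjusted p under 0.05 did not pass the adjusted test. PPP1R15B, a subunit of the phosphatase that reverses eIF2 phosphorylation, had 0.42 and 0.31 (limma adjusted p = 0.12), and EIF2AK4, the kinase that senses uncharged tRNA, had -0.23 and -0.26 (limma adjusted p = 0.37). CARS1, the cysteinyl-tRNA synthetase, had -0.40 and -0.29 (limma adjusted p = 0.14), and YARS1, the tyrosyl-tRNA synthetase, -0.41 and -0.17 (limma adjusted p = 0.26). The mitochondrial recycling factor MRRF had -0.23 and -0.62 (limma adjusted p = 0.072). Of the synthetases 13 of 19 were below 0 in each line, with medians of -0.07, where 48.4% (A549) and 48.8% (H441) of all genes were. The other lists were mixed. In A549 and H441, 2 and 4 of 4 eIF2 kinases, 5 and 3 of 6 release and recycling factors and 4 and 6 of 10 mTORC1 genes were below 0. So were 6 and 5 of 9 poly(A)-binding proteins and eIF4 regulators, 2 and 3 of 6 eIF2 phosphatase and hypusination genes and 5 and 6 of 8 mitochondrial factors.

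Between the lines, averaged over both siRNAs, many translation factor genes differed, as did most genes. In that same fit, the coefficient for line called 36 of the 57 members (63.2%) at an adjusted p under 0.05, where it called 71.9% of all tested genes. Of the 12740 tested genes, 11405 reached the table median in A549 and 11911 in H441, against 57 and 55 of the 57 members. A gene that passed through 1 line alone was favoured to differ, so nothing is read from the gap between the shares. The siNTC and siTAZ arrays of a line serve as its repeats there, so these p-values do not measure the spread between cultures of a line. Of the members, 29 were called higher in H441 and 7 in A549, against a background of 52.8% and 19% of all genes. The members' median of A549 minus H441 was -0.32, and that of all tested genes was -0.31, so the H441 arrays were brighter as a whole. After quantile normalization the median of all genes moved to 0.00 and the split of called members was 14 and 14, and after cyclic loess it was 15 higher in H441 and 12 in A549. The shares of all genes called after these scalings are not given here, so nothing about the members is read from these splits. After median centring the median of all genes was -0.15.

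**Figure D4:**
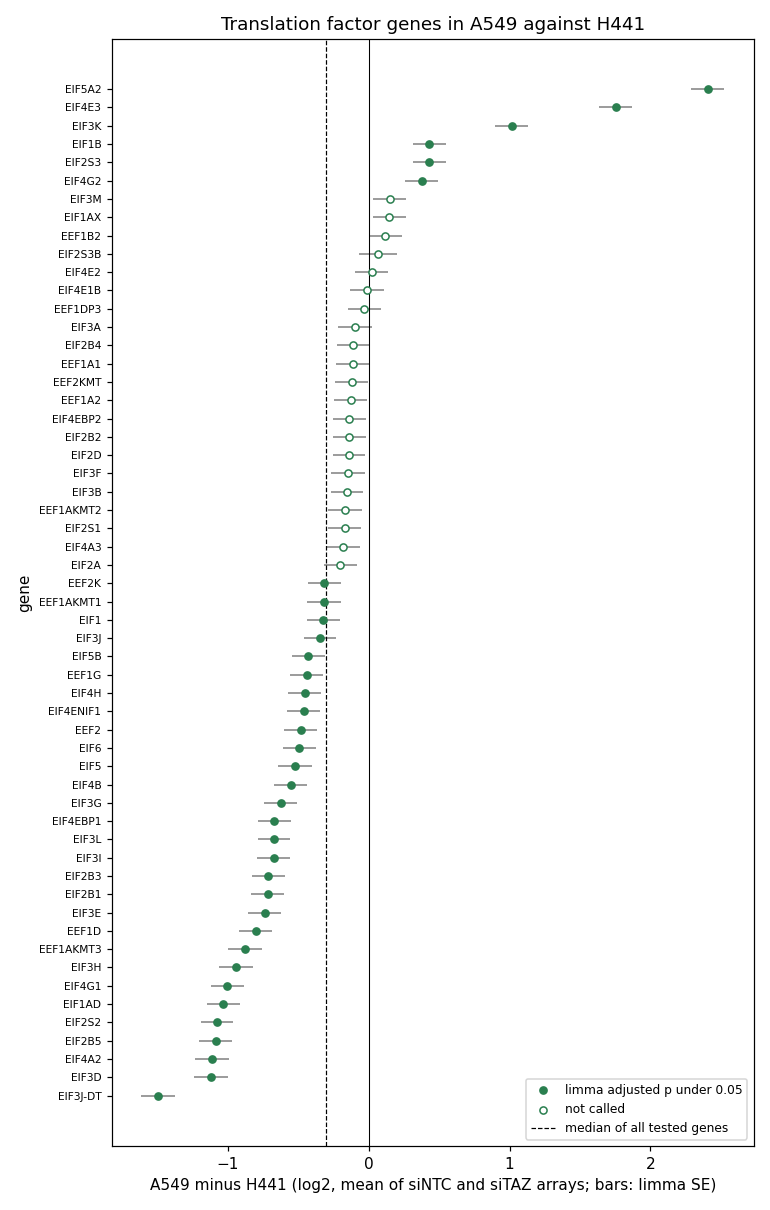
A549 minus H441 on the log2 scale, averaged over the siNTC and siTAZ arrays, for 56 of the 57 tested genes (EIF1AY is not drawn); bars are limma SEs, filled points have a limma adjusted p under 0.05, and the dashed line is the median of all tested genes, -0.31. EIF5A2, EIF4E3 and EIF3K lie farthest to the A549 side and EIF3J-DT and EIF3D farthest to the H441 side.

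EIF5A2 and EIF4E3 passed the filter on dim genes through their A549 arrays alone, so that they had to differ, and their values are given as a description. EIF5A2 had 7.20 and 7.41 in A549 and 4.87 and 4.92 in H441, and EIF4E3 had 7.36 and 7.64 in A549 and 5.68 and 5.80 in H441. Both are among the 7 genes called higher in A549. The genes named next kept their call and direction under the scalings, filters and uses of probe sets that were run. EIF3K had 11.01 and 11.01 in A549 against 9.95 and 10.04 in H441, 2.02-fold higher in A549. Of the 12 eIF3 genes it was the 1 called in that direction, and 7 were called higher in H441. Of all tested genes 19% were called higher in A549 and 52.8% in H441, so nothing is read from the eIF3 counts. EIF1B was 1.35-fold higher in A549. Both differences were larger after quantile normalization, from 1.02 to 1.42 on the log2 scale for EIF3K and from 0.43 to 0.66 for EIF1B. On the H441 side EIF3J-DT was 2.82-fold higher (limma adjusted p = 6.72e-11, 3.15e-06 after quantile normalization and 3.12e-05 after cyclic loess). EIF3D was 2.17-fold higher there, with 10.71 and 10.77 in A549 against 11.91 and 11.82, EIF4A2 2.17-fold, EIF2B5 2.13-fold and EIF2S2 2.11-fold. These differences were smaller after quantile normalization, which removes the greater brightness of the H441 arrays. On the log2 scale EIF3J-DT went from -1.50 to -1.17, EIF3D from -1.12 to -0.72, EIF4A2 from -1.11 to -0.71, EIF2B5 from -1.09 to -0.74 and EIF2S2 from -1.08 to -0.67. For EIF4A2 the difference was also smaller, at -0.77, where the mean of its probe sets was used.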

How the data were processed

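The authors deposited log2 signals per probe set, and the submitters' processing notes name RMA. The version and whether all 4 arrays entered 1 run were not stated in the sources. The scale follows from the range of 4.20 to 14.83 over 28869 probe sets. Of these, 19310 had 1 symbol in the platform annotation, 1752 several and 7807 none there. A gene with several probe sets was read from the one with the highest mean. Differences within a line compare single arrays and have no test. Over both lines, limma 3.58.1 (R 4.3.3; two-sided, Benjamini-Hochberg) was fitted with the line as a block to the 12740 genes whose highest value reached the table median. It has 1 residual degree of freedom and a prior worth 22.3, so an SE draws mostly on all genes. The fit was tested on simulated data. All array values are given for members past 1.5-fold, the 12 with the largest mean absolute difference and a fixed set of central factors. EIF1, EIF2S3 and EIF3J-DT were added after their values were seen. The line comparison names up to 5 members per direction. Sequences are RefSeq start windows (GRCh38.p14), found for 45 of 58 members. The members, lists and tests were chosen with earlier results of these data known. Alternatives covered scaling, filters, probe sets and the fit. Precision is limited by having 1 array per group.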

Additional observations from a re-analysis of the deposited data

Results flagged for a closer look

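Second probe sets of members were not used for the gene values, and 2 of them had a difference of at least 0.32 on the log2 scale that the used probe set did not show. For EIF4B, a probe set with signals of 7.92 and 7.91 in A549 had 8.68 with siNTC and 7.90 with siTAZ in H441, a difference of -0.77 there, against -0.08 for the used probe set and -0.26 for another one. For EIF4A2, a dim probe set had 6.38 and 5.86 in A549, a difference of -0.52, and 6.55 and 6.53 in H441, where the used probe set had 0.13 and -0.25. Each rests on 1 array per group and has no replicate check.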

How the results depend on the processing

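Limma called 2 members, EIF3J and EIF2S3B, after median centring and again with a prior variance that follows the signal, and 0 under the other 6 alternatives. Each time this was 2 of 57 members tested, against 400 of 12674 genes after median centring and 594 of 12740 with the trended prior. With shares this near, nothing is read about the members as a group. The count over all genes was 315 as reported, 146 after quantile normalization, 20 after cyclic loess, 92 without the filter on dim genes, 594 with the trended prior and 0 without the cell line in the fit, where 0 members also had an unadjusted p under 0.05. Between the lines, members called higher in A549 went from 7 to 14 (quantile) and 12 (cyclic loess), and those higher in H441 from 29 to 14 and 15. The shares of all genes called between the lines after these scalings are not given here. PDCD4 and WWTR1 lost their calls without the cell line in the fit, and PDCD4 after cyclic loess. Over the alternatives the members' median stayed below 0 in A549 (-0.06 to -0.05) and in H441 (-0.16 to -0.02). The cause of these shifts was not tested. The line block pairs siTAZ with siNTC within each line, and with 1 array per group no array could be left out.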
